A study of Mus musculus with 4 samples.

Results

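The core autophagy machinery was followed in mouse spinal motor neurons as a list of 35 genes that initiate and build the autophagosome, attach proteins to its membrane, select its cargo or regulate its genes. Members were chosen by symbol, and 33 of the 35 symbols were found among the 27189 gene rows of the RNA-Seq tables, each on a single row. Of these, 32 reached a mean of 1 RPKM (reads per kilobase of transcript, scaled to the mapped reads of the library) and entered the comparison of genotypes, which was fitted over 11530 genes. Atg4a was found but not tested, because it had 0.0294 RPKM in wild-type replicate 2 and was listed at 0 in the other 3 libraries. Ambra1, which encodes a regulator of the Beclin 1 complex, matched no row by symbol or gene identifier and was not analysed here. Tfeb, a transcription factor of lysosomal and autophagy genes, matched no row by symbol, and the row named Tcfeb with the same gene identifier is described apart and was not counted as a member.

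Cell bodies of large motor neurons were cut by laser from Azure B stained sections of the ventral horn, and polyA RNA was sequenced from 2 mice of each genotype at 3 months of age. All mice carried a human SOD1 genomic fragment joined to YFP (yellow fluorescent protein) on a mixed C57BL/6J x SJL/J background. Strain 592 carried wild-type SOD1-YFP and strain 737 carried G85R SOD1-YFP, a substitution found in familial amyotrophic lateral sclerosis. The question put to the autophagy genes was whether their RNA differed between these genotypes before paralysis, when mutant protein already aggregates in some motor neurons. Each genotype was a single transgenic line with its own insertion and copy number, so the mutation and the line cannot be told apart. By the study's description, darkly stained cell bodies with strong local YFP fluorescence were not captured, so the neurons with the most visible aggregates are missing from the G85R libraries. In bulk RNA of this kind, fewer cells of a type and less RNA per cell cannot be told apart.

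Autophagy encloses cytoplasm, organelles or protein aggregates in a growing double membrane that later fuses with the lysosome. A kinase complex starts the process, a lipid kinase marks the membrane, and an enzyme cascade related to ubiquitination couples LC3 and GABARAP proteins to phosphatidylethanolamine, where they bind receptors that carry ubiquitinated cargo. Neurons do not divide and cannot dilute damaged proteins, and loss of the conjugation enzymes in the mouse nervous system leads to ubiquitin-positive inclusions and neurodegeneration.

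The libraries held an estimated 21560300 to 25186600 reads on genes. The 8 motor neuron markers summed to 2472 and 2731 RPKM in wild-type and 2205 and 2575 RPKM in G85R. Chat, the acetylcholine-synthesizing enzyme, measured 66.3 and 81.2 RPKM in wild-type and 49.6 and 65.5 RPKM in G85R. RNA of other cells was present as well, and G85R replicate 1 had the lowest motor neuron sum and the highest glial sums. The 8 microglial markers summed to 14.2 and 16.3 RPKM in wild-type and 35.7 and 17.2 RPKM in G85R. The 6 astrocyte markers summed to 435 and 443 RPKM in wild-type and 608 and 523 RPKM in G85R. Gfap, an astrocyte filament protein, measured 11.5 and 17.1 RPKM in wild-type and 91.9 and 28.4 RPKM in G85R. In both of these sums and in Gfap, both G85R libraries lay above both wild-type libraries, but not every marker did so. S100b made up most of the astrocyte sum, at 412 and 414 RPKM in wild-type and 498 and 483 RPKM in G85R. Slc1a2 was also above in both G85R libraries, whereas Aqp4, Aldh1l1 and Slc1a3 overlapped. Of the microglial markers, C1qa, C1qb, C1qc and Itgam were above, whereas Aif1, Cx3cr1, Csf1r and Cd68 overlapped. The 6 oligodendrocyte markers overlapped, with sums of 827 and 770 RPKM in wild-type and 988 and 755 RPKM in G85R. The 5 interneuron markers summed to 186 and 191 RPKM in wild-type and 217 and 200 RPKM in G85R. The 3 endothelial markers summed to 6.63 and 8.16 RPKM in wild-type and 5.34 and 5.77 RPKM in G85R. The part of this RNA of other cells in the autophagy values was not tested.

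The autophagy machinery was expressed well above the typical gene of these neurons, and its RNA was concentrated in a few members. The median of the 32 tested members was 19.5 RPKM against 10.1 RPKM for all 11530 tested genes, and 24 of the 32 lay above that median. Sqstm1, which encodes the cargo receptor p62, was the most abundant. It measured 510 and 497 RPKM in the wild-type libraries and 491 and 510 RPKM in the G85R libraries. Gabarapl1, a GABARAP family protein coupled to the autophagosome membrane, followed at 414 and 367 RPKM in wild-type and 493 and 465 RPKM in G85R. Map1lc3a, which encodes LC3A, came next at 313 and 344 RPKM in wild-type and 332 and 345 RPKM in G85R. These 3 genes held 60.2% to 62.9% of the RPKM summed over the members in each library. The summed total was 2012 and 2007 RPKM in wild-type and 2094 and 2139 RPKM in G85R.

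**Figure D1:**
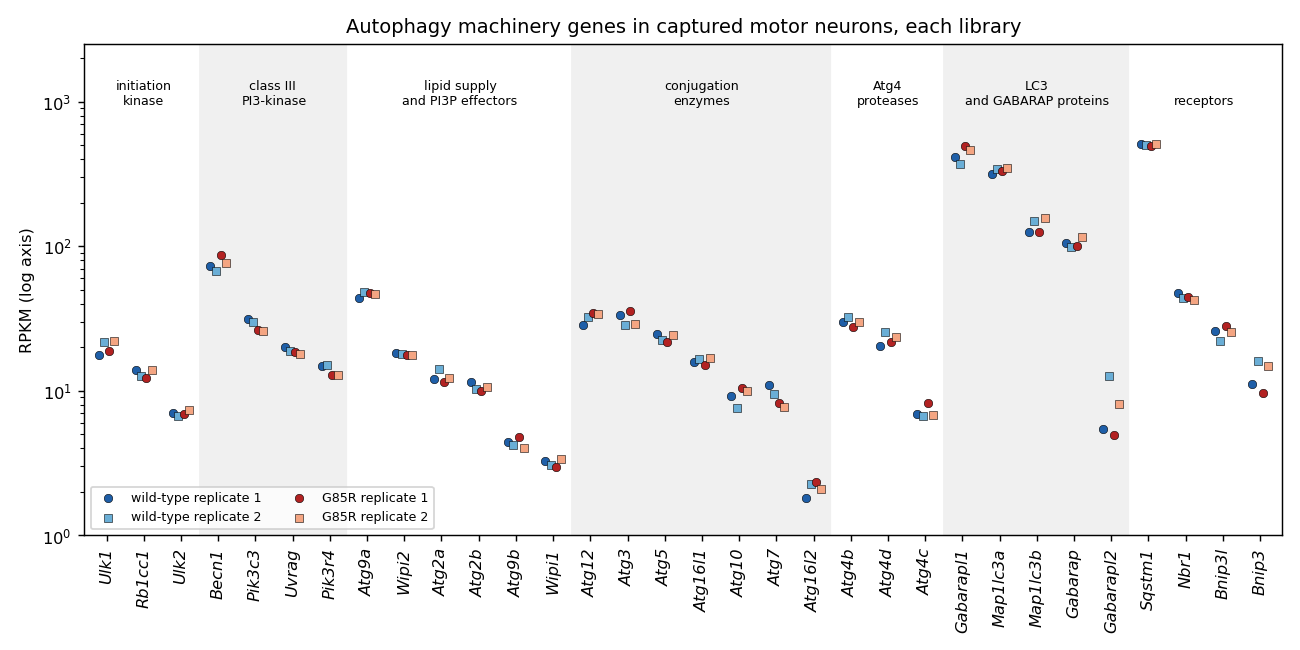
RPKM of the 32 tested autophagy genes in each of the 4 libraries (log axis), ordered by role and then by mean level, with circles for replicate 1, squares for replicate 2, blue for wild-type and red for G85R. Sqstm1, Gabarapl1 and Map1lc3a stand at 313 RPKM or more in every library, whereas Atg16l2, Wipi1 and Atg9b stay under 5 RPKM.

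Levels differed widely between members with the same role. Among the membrane-coupled proteins, Map1lc3b (LC3B) lay between 126 and 156 RPKM over the libraries and Gabarap between 98.3 and 117 RPKM, whereas Gabarapl2 lay between 4.93 and 12.6 RPKM. Gabarapl2 and Map1lc3b share much sequence with other places in the genome, as described below, and the effect on their levels was not tested. Among the genes of the lipid kinase complex, Becn1 (Beclin 1) averaged 75.9 RPKM and the catalytic subunit gene Pik3c3 28.4 RPKM. Of the paralog pairs, Atg9a, a lipid scramblase of the vesicles that seed the membrane, averaged 46.6 RPKM and Atg9b 4.37 RPKM. Atg16l1, part of the complex that places LC3 on membranes, averaged 16.1 RPKM and Atg16l2 2.13 RPKM. Wipi2, a PI3P-binding protein, lay between 17.7 and 18.4 RPKM and Wipi1 averaged 3.18 RPKM.

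Several members have processed pseudogenes, and reads from a gene and from its copy can be hard to separate. Each 75-base window of the longest GENCODE M1 transcript, the length of the reads, was therefore searched in the NCBIM37 genome (the assembly known as mm9), with up to 2 mismatches and outside the gene itself. For 19 of the 33 members found in the tables no window occurred elsewhere, Gabarapl1, Map1lc3a, Pik3c3 and Atg10 among them. For 7 members over 20% of the windows did. These were Atg4a (95.8%), Bnip3 (85.6%), Gabarapl2 (53.3%), Map1lc3b (50.5%), Bnip3l (37.7%), Rb1cc1 (29.5%) and Atg7 (25.6%). The paper reports the share of reads with a single location in the genome, and names processed pseudogenes as its reason for not evaluating the chaperone gene Hspa8. How reads with several matches were handled for the gene values is not given in the sources used here, and the effect on the RPKM was not tested.

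**Figure D2:**
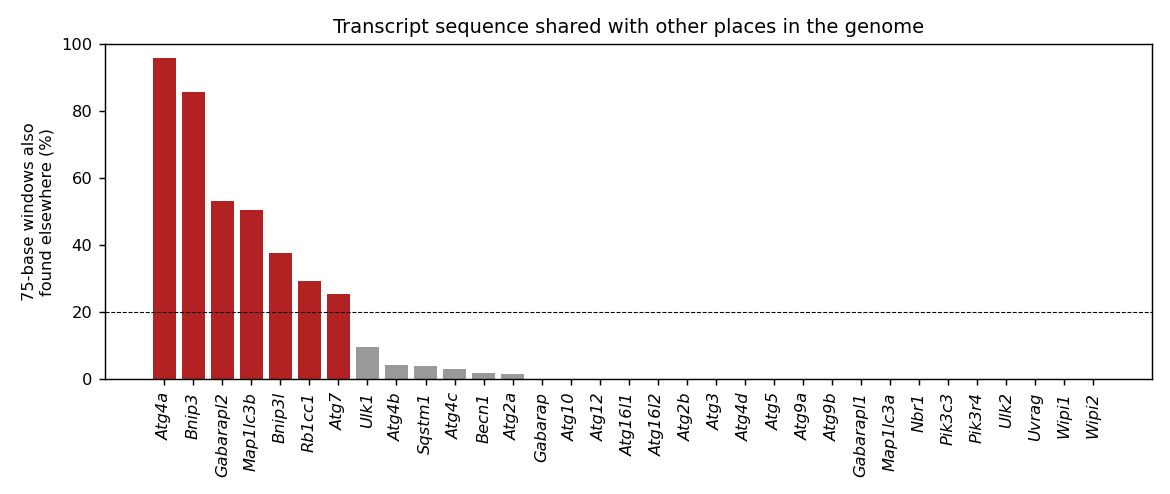
Percent of 75-base windows of each member's transcript that occur elsewhere in the mouse genome with up to 2 mismatches, for the 33 members found in the tables. Red bars lie above the dashed line at 20%, with Atg4a and Bnip3 the highest, and most members have a bar at or near 0.

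Copies without introns can be recognized because the sequence across an exon junction, which the gene itself holds only after splicing, stands unbroken in the genome. All 3 coding junctions of Gabarapl2, all 3 of Map1lc3b and all 5 of Bnip3 were found unbroken elsewhere, as were 8 of the 11 of Atg4a and 9 of the 21 of Rb1cc1, but none of the 17 of Atg7. The 30 bases across 1 junction of each of 4 genes are shown, because the same bases occur in a copy, so these bases alone do not tell the spliced RNA from the copy. A 75-base read reaches past them. The capitals mark the last base of one exon and the first base of the next.
Gabarapl2, junction 3: agtcccacagtccaGCctaactatgggaca
Map1lc3b, junction 3: catcaagataatcaGAcggcgcttgcagct
Bnip3, junction 5: ggccattggcttggGGatctacattggaag
Atg4a, junction 12: caaccacaggggcaGAattcatagagtcga
The Gabarapl2 piece occurred at chr5:23624207-23624236 on the minus strand in the pseudogene Gm3724, which overlaps Klhl7 on the other strand, and again in the pseudogene Gm5829 at chr1:71756352-71756381. It also occurred at chr5:76456510-76456539, where no gene is annotated. The Map1lc3b piece lay in the pseudogene Gm12727 at chr4:105771699-105771728 and in the pseudogene Gm6054 at chr5:148220746-148220775, both on the plus strand. The Bnip3 piece lay in the pseudogene Gm16439 at chr14:45216843-45216872 and, without an annotated gene, at chr14:44843210-44843239, both on the plus strand. The Atg4a piece lay in Atg4a-ps at chr3:103448815-103448844 on the minus strand. With 95.8% of its windows shared, values at or near 0 for Atg4a do not show that its RNA was absent.

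Between genotypes, no autophagy member passed the main test. With limma on log2(RPKM + 0.1) and Benjamini-Hochberg adjustment over all tested genes, 0 of the 32 members were called at an adjusted p under 0.05, where 0.642% of all tested genes (74 of 11530) were called. At an unadjusted p under 0.05 2 of the 32 members passed, Gabarapl1 and Atg7, against 11.0% of all tested genes. The members' log2 fold changes ran from -0.39 to 0.30, 16 were higher and 16 lower in G85R, and the median was 0.00 against -0.02 over all tested genes. Over all tested genes 45.3% were higher in G85R. The median size of the change, without its sign, was 0.09 for the members and 0.12 for all tested genes. A missed threshold does not show that levels were equal, so the intervals bound what could have been missed. The 95% confidence interval lay within a 2-fold change either way for 31 of 32 members, Gabarapl2 being the exception, and within a 1.5-fold change for 27 of 32.

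**Figure D3:**
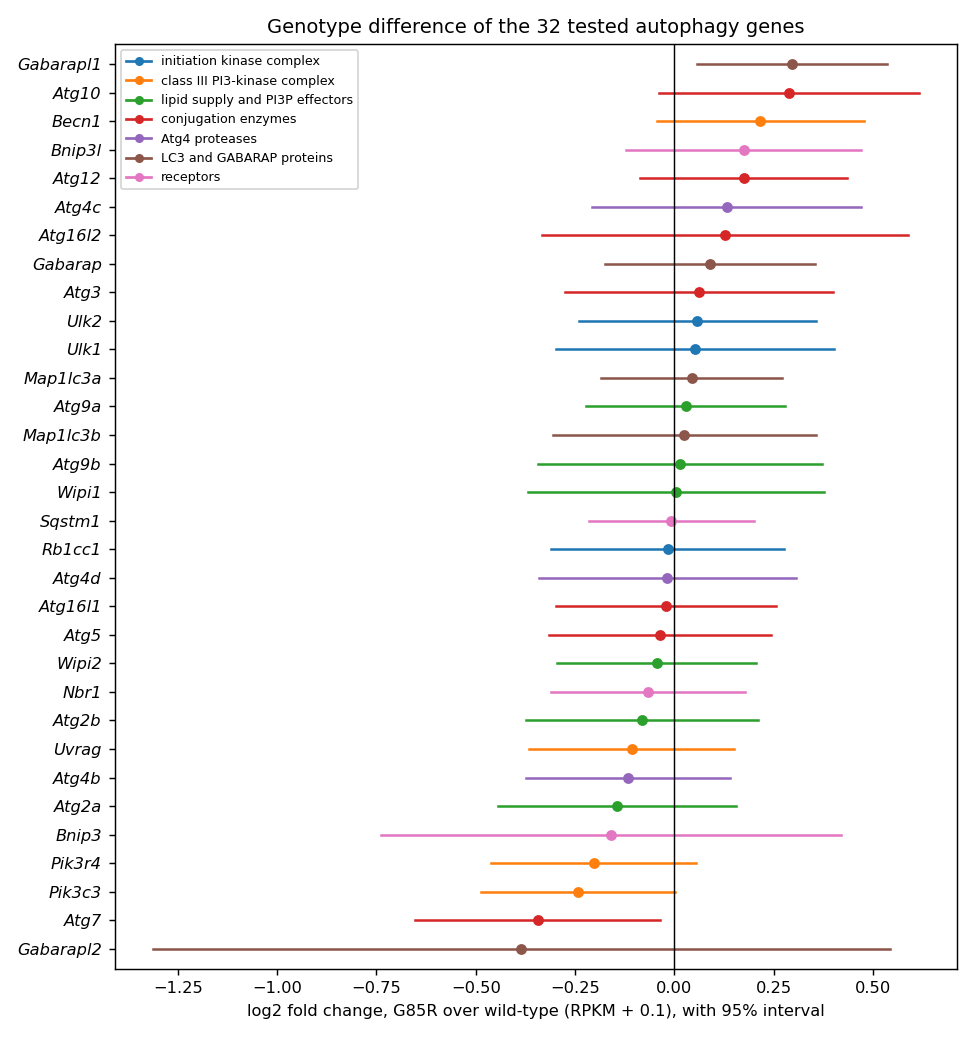
Log2 fold change of G85R over wild-type for the 32 tested members, on RPKM + 0.1, with the 95% confidence interval from limma and colors for the role. Gabarapl1 and Atg7 alone have intervals that leave out 0, and Gabarapl2 has the widest interval.

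The 5 members that encode the membrane-coupled proteins included the largest increase and the largest decrease. Gabarapl1 averaged 390.6 ± 33.2 RPKM in wild-type and 479 ± 20.3 RPKM in G85R (SD, n = 2 each), and both G85R libraries were above both wild-type libraries. Its log2 fold change was 0.30 with an SE of 0.10 and a 95% confidence interval from 0.06 to 0.54, at an unadjusted p of 0.0223 and an adjusted p of 0.350 in limma. The paper compared the genotypes with a log-linear model and a likelihood ratio test. A log-linear likelihood ratio test of that kind, which treats rounded RPKM as counts, called Gabarapl1 here at an adjusted p of 0.0114. That test called 1 of 33 members, against 0.228% of the 27189 rows, and its unadjusted p was under 0.05 for the same single member, against 1.29% of the rows. Only 11530 of those rows reached a mean of 1 RPKM, whereas 32 of the 33 members did, so these shares are over unlike sets. No window of the longest Gabarapl1 transcript occurred elsewhere in the genome with up to 2 mismatches. Spliced transcripts of other genes were not searched, and the reads themselves were not examined.

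Gabarapl2 measured 5.48 and 12.6 RPKM in wild-type and 4.93 and 8.17 RPKM in G85R, so the genotypes overlapped and the replicates lay farther apart than the genotypes. Its log2 fold change was -0.39 with an SE of 0.39 and a 95% confidence interval from -1.31 to 0.54 (limma adjusted p = 0.811). Without wild-type replicate 2 it turned to 0.21. The other 3 had small differences and overlapping libraries. The log2 fold change was 0.04 for Map1lc3a (SE 0.10, limma adjusted p = 0.934) and 0.02 for Map1lc3b (SE 0.14, limma adjusted p = 0.974). For Gabarap it was 0.09 (SE 0.11, limma adjusted p = 0.863). Map1lc3b measured 126 and 150 RPKM in wild-type and 126 and 156 RPKM in G85R. Gabarap measured 106 and 98.3 RPKM in wild-type and 101 and 117 RPKM in G85R. Summed over the 5 genes, the family reached 965 and 973 RPKM in wild-type and 1057 and 1090 RPKM in G85R, and Gabarapl1 supplied 37.7% to 46.7% of it.

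Of the conjugation enzymes, Atg7 was lower in both G85R libraries, at 11.0 and 9.51 RPKM in wild-type and 8.28 and 7.79 RPKM in G85R. Atg7 is the E1-like enzyme that activates both ubiquitin-like systems of the pathway. Its log2 fold change was -0.34 with an SE of 0.13 and an interval from -0.65 to -0.04, at an unadjusted p of 0.0332 and an adjusted p of 0.408 in limma. The E2-like enzyme gene Atg10 went the other way, with 9.23 and 7.60 RPKM in wild-type and 10.5 and 9.99 RPKM in G85R. Its libraries did not overlap, and its log2 fold change was 0.29 with an SE of 0.14 and an interval from -0.04 to 0.62 (limma adjusted p = 0.515). The value was 0.15 without wild-type replicate 2 and 0.43 without wild-type replicate 1. Atg12, the ubiquitin-like protein that Atg10 attaches to Atg5, was also higher in both G85R libraries, with 28.7 and 32.3 RPKM in wild-type and 34.6 and 34.1 RPKM in G85R (log2 fold change 0.17, limma adjusted p = 0.650), and its log2 fold change was 0.09 without wild-type replicate 1. Atg5 itself had 24.7 and 22.6 RPKM in wild-type and 21.7 and 24.5 RPKM in G85R, which overlap. Atg3, the E2-like enzyme for LC3, Atg16l1 and Atg16l2 overlapped as well, with log2 fold changes of 0.06, -0.02 and 0.13. Over the 7 genes of the role, 4 were higher and 3 lower in G85R, and none was called.

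The genes of the lipid kinase complex did not move as one. Becn1, the scaffold of the complex, measured 72.8 and 67.5 RPKM in wild-type and 86.8 and 76.3 RPKM in G85R, with both G85R libraries above. Its log2 fold change was 0.22 with an SE of 0.11 and an interval from -0.05 to 0.48 (limma adjusted p = 0.543), and it was 0.12 without G85R replicate 1. The other 3 tested genes of the role were lower in both G85R libraries. Pik3c3, the kinase VPS34 itself, measured 31.6 and 30.1 RPKM in wild-type and 26.2 and 25.9 RPKM in G85R, with a log2 fold change of -0.24, an SE of 0.10 and an interval from -0.49 to 0.00 (limma adjusted p = 0.453). Pik3r4, its regulatory subunit VPS15, measured 14.7 and 15.02 RPKM in wild-type and 13.0 and 12.9 RPKM in G85R (log2 fold change -0.20, limma adjusted p = 0.566). Uvrag, which joins the complex on endosomes, had 20.2 and 18.9 RPKM in wild-type and 18.5 and 17.9 RPKM in G85R (log2 fold change -0.11).

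The initiating kinases and their scaffold showed little difference. Ulk1 and Ulk2, the kinases that start autophagy, had log2 fold changes of 0.05 and 0.06, and Rb1cc1, the scaffold FIP200, had -0.02, and all 3 overlapped between genotypes. The 6 tested genes of lipid supply and PI3P binding lay between -0.14 for Atg2a, a lipid transfer protein, and 0.03 for Atg9a. Atg2b had -0.08, Wipi1 0.00 and Atg9b 0.01. Wipi2 alone among these 6 did not overlap, at 18.4 and 18.1 RPKM in wild-type and 17.7 RPKM in both G85R libraries (log2 fold change -0.04). The proteases that trim LC3 before conjugation and release it afterwards were likewise close, with log2 fold changes of -0.12 for Atg4b, 0.13 for Atg4c and -0.02 for Atg4d. Atg4b, the most abundant of them, measured 30.0 and 32.5 RPKM in wild-type and 27.8 and 29.8 RPKM in G85R, so its G85R libraries lay just below.

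The cargo receptors were led by Sqstm1, with a log2 fold change of -0.01, an SE of 0.09 and an interval from -0.22 to 0.20 (limma adjusted p = 0.986). p62 protein builds up where autophagy is blocked, but the values here are of its RNA. Nbr1, a related ubiquitin-binding receptor, ranged over 42.5 to 47.2 RPKM with overlapping genotypes and a log2 fold change of -0.07. The mitophagy receptor genes Bnip3 and Bnip3l had log2 fold changes of -0.16 and 0.17. Bnip3 measured 11.1 and 16.1 RPKM in wild-type and 9.64 and 14.8 RPKM in G85R, and its value turned to 0.11 without wild-type replicate 2. Bnip3l lay between 22.1 and 28.3 RPKM.

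Counted over the members, both G85R libraries were above both wild-type libraries for 4 of 32 genes (Gabarapl1, Atg10, Becn1 and Atg12), against 17.3% of all tested genes. Both were below for 6 of 32 (Atg7, Pik3c3, Pik3r4, Uvrag, Atg4b and Wipi2), against 23.9% of all tested genes. Together the genotypes were separate for 31.3% of the members and for 41.2% of all tested genes, so separation was not more frequent among the members. Without G85R replicate 1, the library with the highest glial marker sums, 9 members changed direction. The log2 fold change became 0.15 for Bnip3, 0.06 for Atg16l1, 0.04 for Atg4d, 0.05 for Atg5, 0.07 for Rb1cc1, 0.020 for Sqstm1, -0.08 for Atg3, -0.10 for Atg9b and -0.0095 for Atg4c. Leaving out any other library also turned members. Without wild-type replicate 1, Ulk1 (-0.10), Rb1cc1 (0.05), Atg5, Atg9a, Atg16l2, Map1lc3a, Map1lc3b and Sqstm1 turned. Without wild-type replicate 2, Atg4d (0.14), Atg3, Atg9b, Atg16l1, Bnip3, Gabarapl2 and Wipi1 turned. Without G85R replicate 2, Map1lc3b (-0.13), Gabarap, Ulk1 and Wipi1 turned. Whether glial RNA had a part in the turns was not tested. A permutation test of 2 against 2 libraries cannot go below an exact two-sided p of 0.333, and it was not used for single genes. Of the 26 members with at most 20% of windows elsewhere, 14 were higher in G85R, the median log2 fold change was 0.01, and 0 were called by limma.

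**Figure D4:**
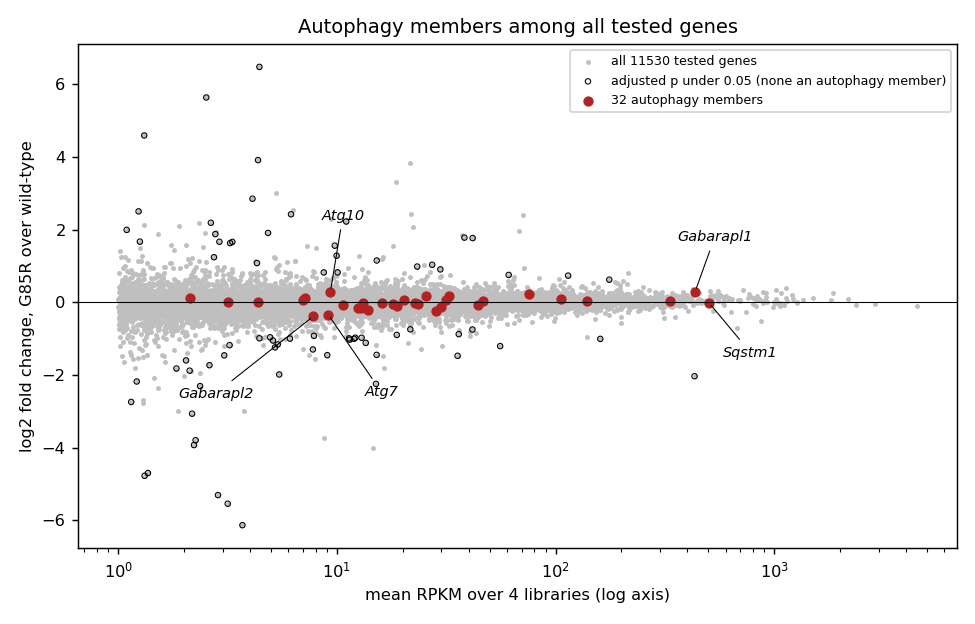
Log2 fold change of G85R over wild-type against mean RPKM (log axis) for all 11530 tested genes (gray), with the 74 called genes circled and the 32 autophagy members in red. The members lie within 0.39 of 0 on the log2 scale, inside the band of genes that were not called.

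For some members the replicates of a genotype lay farther apart than the means of the genotypes. Gabarapl2 was 2.30 times higher in replicate 2 than in replicate 1 of wild-type and 1.66 times higher in G85R. Bnip3 was 1.45 and 1.54 times higher in replicate 2, and Map1lc3b 1.19 and 1.23 times. These 3 genes are the tested members with over 50% of their windows elsewhere. Ulk1 (1.24 and 1.18 times) and Atg3 (0.846 and 0.818 times) also differed by over 0.2 on the log2 scale in the same direction in both genotypes. Across the 32 members the difference between replicates in one genotype correlated with that in the other (Pearson r = 0.72), and across the 29 members without those 3 genes r was 0.31. Over all tested genes r was 0.22. These correlations are across genes of the same 4 libraries, genes are not independent replicates, and what same-numbered libraries share is not stated in the labels.

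**Figure D5:**
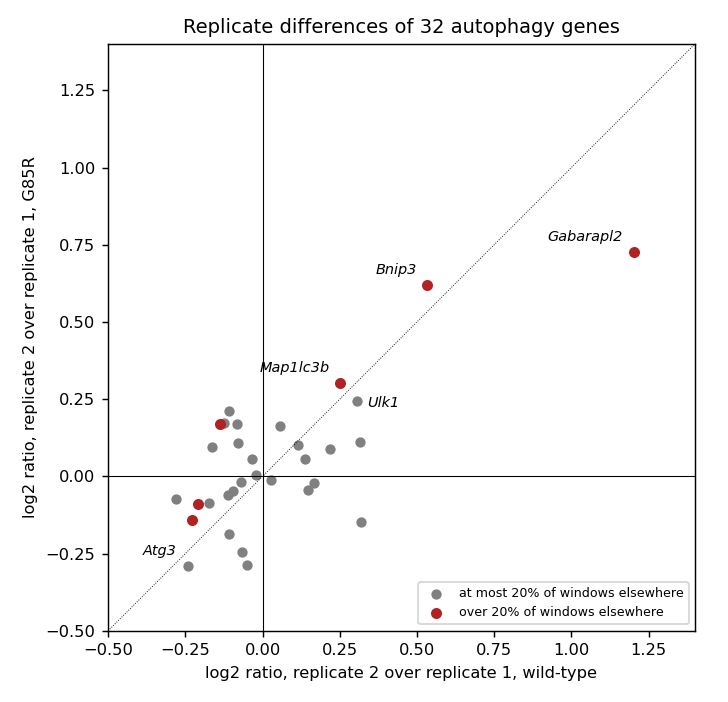
Log2 ratio of replicate 2 over replicate 1 in G85R against the same ratio in wild-type for the 32 tested members, with members that have over 20% of windows elsewhere in red and the dotted line marking equal ratios. Gabarapl2 and Bnip3 lie at the upper right, away from the other members, and Map1lc3b lies close to Ulk1.

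The row named Tcfeb, which holds Tfeb, measured 5.71 and 7.83 RPKM in wild-type and 3.91 and 5.43 RPKM in G85R, with both G85R libraries below. Its log2 fold change was -0.53 with an SE of 0.21 and a 95% confidence interval from -1.04 to -0.02, at an unadjusted p of 0.0440 and an adjusted p of 0.436 in limma. Leaving out each library in turn gave -0.76 to -0.30. TFEB binds the palindrome CACGTG, which lies inside the longer site of lysosomal and autophagy genes. In the RefSeq promoters (GRCm38.p6, 250 bases before to 50 after the start of transcription), 28 of the 35 members had an entry, and 4 of these (14.3%) held CACGTG, which reads the same on both strands, against 8.09% of all genes with a promoter. They were Atg3, Atg5, Atg7 and Bnip3. The extended palindrome TCACGTGA, which contains CACGTG, occurred in Atg3 alone, against 1.12% of all genes. CACGTG is shown in capitals, with its flanks in lower case, for Atg7, which alone of these 4 had an unadjusted limma p under 0.05. It is shown likewise for the extended match in Atg3, whose outer t and a are in lower case.
Atg7, chr6:114670952-114670981, plus strand: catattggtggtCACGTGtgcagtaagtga
Atg3, chr16:45158746-45158775, plus strand: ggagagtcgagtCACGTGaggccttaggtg
The match lies 132 bases before the start in Atg7 and 71 bases before it in Atg3. A match is a description of the letters, and binding was not measured.

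Beyond the members, 61 further genes of autophagy regulation, membrane supply, cargo selection and fusion with the lysosome were listed, of which 57 were found (10 under another symbol) and 54 were tested. By limma 0 of these 54 were called, and 5 had an unadjusted p under 0.05 (9.26%, against the 11.0% above). In G85R 25 were higher and 29 lower, and their log2 fold changes had a median of -0.02. Over all tested genes 45.3% were higher. By group, the genes higher in G85R were 0 of 5 initiation partners, 3 of 4 of WIPI and membrane, and 7 of 15 receptors and adaptors. They were 7 of 14 of fusion, 1 of 4 transcription factors, and 7 of 12 of mTORC1 and AMPK. In the mTORC1 and AMPK group Ddit4, Prkab1, Tsc2 and Rragd were above in both G85R libraries, whereas Mtor, Mlst8, Prkaa1 and Prkag1 were below in both. The 2 largest increases of the list fell in this group. Ddit4, a stress-induced inhibitor of mTORC1, measured 22.8 and 29.2 RPKM in wild-type and 31.2 and 40.2 RPKM in G85R (log2 fold change 0.46, limma adjusted p = 0.402). Prkab1, a subunit of the energy sensor AMPK, measured 10.3 and 13.7 RPKM in wild-type and 14.7 and 17.2 RPKM in G85R (log2 fold change 0.42, limma adjusted p = 0.419). The largest decreases were those of Xbp1, a transcription factor of the unfolded protein response, at -0.32 (limma adjusted p = 0.423), and of Hdac6, a deacetylase that binds ubiquitinated aggregates, at -0.21 (limma adjusted p = 0.650). With each library left out in turn, the log2 fold change ran from 0.27 to 0.64 for Ddit4, 0.22 to 0.63 for Prkab1, -0.43 to -0.22 for Xbp1 and -0.32 to -0.09 for Hdac6. The other 2 genes with an unadjusted p under 0.05 were Tsc2, an inhibitor of mTORC1, and Pink1, a kinase that marks damaged mitochondria, both with a log2 fold change of 0.30.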

How the data were processed

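PolyA RNA of laser-captured motor neurons from 4 mice (2 per genotype) was sequenced as 75-base single reads. The authors mapped reads with Bowtie 0.12.3 (per the labels) to mm9 and a splice junction database, quantified UCSC gene clusters with Cufflinks and deposited RPKM per cluster, with a second RPKM column after adding 1 read. Reads per gene were estimated from the difference of these columns. Libraries came from separate mice, and precision is limited by n = 2. The main test was limma 3.58.1 (R 4.3.3, trended eBayes, two-sided) on log2(RPKM + 0.1) for rows with a mean of at least 1 RPKM, with Benjamini-Hochberg adjustment at 0.05. Fold changes on this scale understate changes of low genes. The alternatives were other pseudocounts, minimums, scalings, variance settings, a replicate block, leaving out each library and a log-linear likelihood ratio test. Scripts were tested on simulated data. Members and lists were chosen with earlier results of these data known. Named members were all 35, with full statistics for those with an unadjusted p under 0.05, the 3 largest changes each way, the 5 most abundant and the LC3 and GABARAP family, and, of the other autophagy genes, any called and the 2 largest changes each way. Tsc2 and Pink1 were named after their values were seen. 5 of the other autophagy genes were matched by synonym and 5 by gene identifier. Repeat copies were searched with up to 2 mismatches.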

Additional observations from a re-analysis of the deposited data

How the results depend on the processing

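With 2 mice per genotype, only large and steady differences could be called. No member was called by limma under any alternative, and the lowest adjusted p was 0.0581 (Gabarapl1 with the replicate block). The log-linear test called 1 member, Gabarapl1, and the cause was not tested. With the replicate block 0 members and 1 other autophagy gene (Ddit4, adjusted p = 0.0166) were called, and calls over all genes went from 74 to 527, but 2 pairs are too few to show that the numbers pair the mice. Over all genes the calls numbered 17 to 188 in the other fits (188 without G85R replicate 2, 17 with a minimum of 5 RPKM). Leaving out members with over 20% of their windows elsewhere, chosen after seeing the data, gave 0 calls. The members' median, the number higher in G85R and the number not overlapping stayed within 1.5 times or 1 SD between replicates. Of 477 refitted member values, 442 kept their direction and 35 in 17 members turned. Median ratio rescaling turned Atg16l1 to 0.0012, Atg4d to 0.0050, Rb1cc1 to 0.0062 and Sqstm1 to 0.015. Quantile normalization turned Atg16l1 to 0.0066, Rb1cc1 to 0.018 and Map1lc3b to -0.013. When each library was left out in turn, log2 fold changes ran from -0.10 to 0.060 for Atg16l1, -0.024 to 0.28 for Atg16l2, -0.082 to 0.21 for Atg3, -0.0095 to 0.27 for Atg4c, -0.18 to 0.14 for Atg4d, -0.12 to 0.050 for Atg5, -0.046 to 0.10 for Atg9a, -0.10 to 0.13 for Atg9b, -0.47 to 0.15 for Bnip3, -0.016 to 0.19 for Gabarap, -0.98 to 0.21 for Gabarapl2, -0.025 to 0.11 for Map1lc3a, -0.13 to 0.18 for Map1lc3b, -0.10 to 0.068 for Rb1cc1, -0.035 to 0.020 for Sqstm1, -0.10 to 0.20 for Ulk1 and -0.078 to 0.087 for Wipi1. A lone library was then assumed to vary like the pair of the other genotype. The cause of these turns was not tested.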
